A study of Mus musculus with 13 samples.

Results

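The chromosome 10 block analysed here is a run of 47 neighbouring mouse genes from Fuca2 to Epb41l2, taken from a table of 21100 genes. Its members were chosen by their log2 expression in tumor GEM4, where many of them stood higher than in the other genetically induced tumors, so their levels in GEM4 are given as a description and no test is made of them. Of the 47 genes, 40 reached at least 10 counts in at least 4 of the 13 tumors and were tested. Il22ra2, Tcf21 and Vnn3 had no value in the transplanted tumors, and Txlnb, Il20ra, Aldh8a1 and Eya4 had too few counts. Slc35d3 and 1 further member passed this filter only because GEM4 was among exactly 4 tumors that reached the minimum.

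The tumors were basal cell carcinomas (BCC) of female mice that carried Ptch1+/- and p53fl/fl alleles, and poly(A) RNA of each tumor was sequenced. GEM-BCC (n = 9 tumors from 7 mice) arose in the skin of Ptch1+/- K14-CreER2 p53fl/fl mice (K14-CreERT2 in the design text), in which Cre under the keratin 14 promoter deletes p53 in basal keratinocytes, after 3 injections of 300 µg tamoxifen and 4 Gy of X-ray. Tumors GEM2 and GEM3 shared 1 mouse, as did GEM7 and GEM8. Tp-BCC (n = 4 tumors from 4 mice, TP1 to TP4) grew under the skin of Ptch1+/-p53fl/fl mice without the Cre transgene after inoculation of 2e+06 cells, and all of them descended from a single GEM-BCC tumor, so they are replicates of 1 line. Mouse ages are not given in the sources used here. Batch 1 held every GEM-BCC library and batch 2 every Tp-BCC library, so the model and the batch cannot be told apart. Depth was 28075317 to 32629102 counts per GEM-BCC library and 15388027 to 17494912 per Tp-BCC library. Summed CPM (counts scaled to library size) of 8 basal epithelium and BCC markers, Krt5, Krt14, Gli1 and Ptch1 among them, were 18290 in GEM4, 12750 to 18100 in the others of its model and between 8646 and 21040 in Tp-BCC, so RNA of the labelled tissue was present in every library. Krt5 was the largest part of the sum (9460 CPM in GEM4). Krt15, also of the 8, was lower in Tp-BCC, with 27.6 to 74.1 CPM against 290 to 1350 in the GEM-BCC tumors other than GEM4.

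Genes that lie side by side on a chromosome usually belong to unrelated pathways, and a stretch of them can change level together when the number of copies of that stretch changes or when its chromatin changes. RNA counts alone do not separate these. The stretch holds genes of several systems known in skin, among them Perp, a p53 target that builds desmosomes, Tnfaip3, which encodes the NF-kappaB inhibitor A20, and Ifngr1, the ligand-binding chain of the interferon gamma receptor. It also holds Ccn2, a Yap target that encodes a matrix protein. In tumors measured as a whole, fewer cells of a type and less RNA per cell cannot be told apart.

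In GEM4 the block stood above the other GEM-BCC tumors along nearly its whole length. For each gene, log2 CPM of a tumor was set against the mean of the other GEM-BCC tumors, and the median of this difference over the 40 tested genes was 1.88 in GEM4. For every other GEM-BCC tumor that mean includes GEM4, which lowers its values where GEM4 is high. The same median was 0.41 in GEM8, -0.11 in GEM9 and -0.48 to -0.29 in the other GEM-BCC tumors, and the SD of the 8 medians without GEM4 was 0.29. The difference was above 0 for 39 of the 40 genes and above 1 for 35, against 6.2% of all 14390 tested genes, a share that the choice of the members leads to. GEM4 was the highest of the 9 GEM-BCC tumors for 35 members, against 8.29% of all tested genes, and the highest of the 13 tumors for the same number. The exceptions were Adgrg6, Cited2, Pde7b, Enpp3 and Epb41l2. The members took 2.18% of all counts in GEM4, 0.113% to 0.21% in the other induced tumors and between 0.0509% and 0.132% in Tp-BCC.

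**Figure D1:**
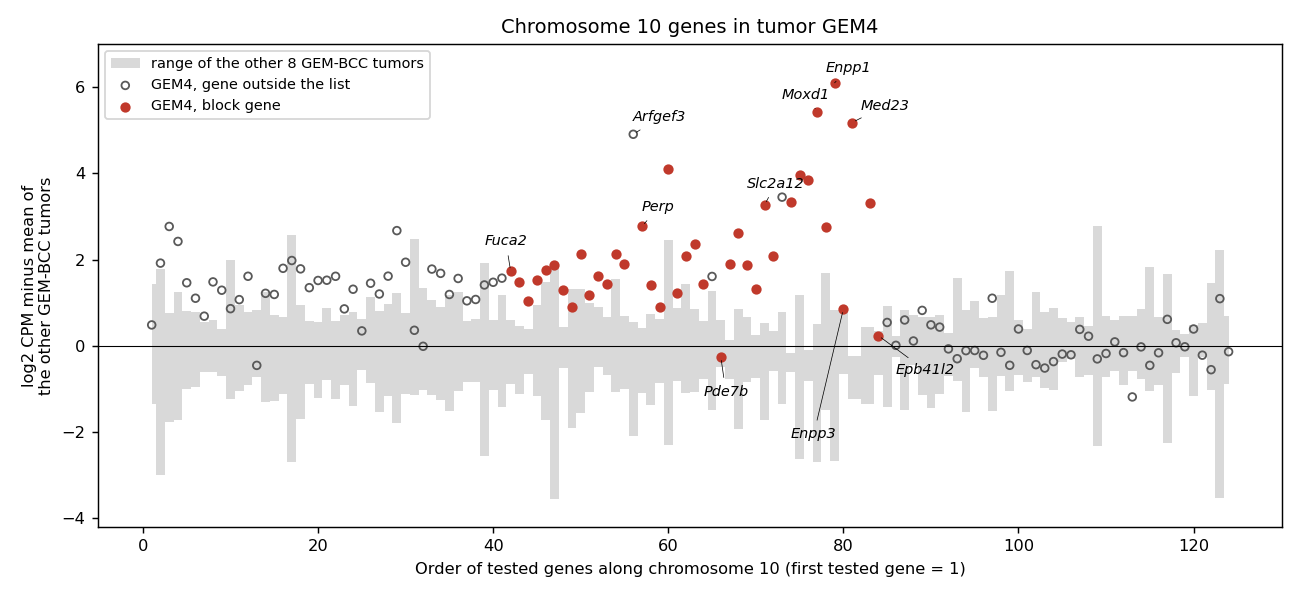
Log2 CPM of GEM4 minus the mean of the other GEM-BCC tumors (vertical axis) for tested genes in their order along chromosome 10 (horizontal axis), with block genes as filled points, other genes as open points and the range of the other 8 GEM-BCC tumors in grey. Genes left of Fuca2 lie near the 1.45 median of that stretch, the highest points are Enpp1 (6.10), Moxd1 (5.43) and Med23 (5.18), and the points return to about 0 from Epb41l2 (0.23) on.

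The 2 ends of the block differed. At the right end the difference in GEM4 was 3.32 at Akap7, the last gene but 1, and 0.23 at Epb41l2, the last. Tmem200a, the first tested gene beyond, had 0.54, and the 20 nearest genes after Epb41l2 had a median of -0.09. The left end was not an edge. Fuca2, the first member, had 1.73 and Phactr2, the last gene before it, had 1.57. All 41 tested genes from the start of the chromosome to Fuca2 had a median of 1.45 in GEM4, with 33 of them above 1, and the 599 tested genes after Epb41l2 had a median of -0.17. The genes raised in GEM4 thus ran from the first tested genes of chromosome 10 to Akap7, beyond the block's left end, so the block covers only the right side of that stretch. The order of genes was taken from RefSeq on GRCm38, an older build than the GRCm39 used for the counts, and served only to rank neighbours.

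Within the block there were 2 levels. The 29 tested members from Fuca2 to Tbpl1 had a median of 1.73 in GEM4, close to that of the genes before Fuca2, and 26 of them were above 1. The 10 tested members from Slc18b1 to Akap7 had a median of 3.60, with 9 of them above 1 and a range of 0.85 (Enpp3) to 6.10 (Enpp1). Another 3 tested genes of the span are not on the list, and they too were higher in GEM4, Arfgef3 by 4.91, Rps12, a ribosomal protein gene whose reads can be shared with near-identical copies, by 3.45 and Mtfr2 by 1.61. In windows of 21 neighbouring tested genes on all chromosomes, the highest median of GEM4 was 2.75, from Map7 to Akap7. All of the 72 windows of GEM4 with a median above 1 lay on chromosome 10, and the highest on any other chromosome was 0.74, on chromosome 4. These windows describe 1 tumor and carry no test.

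The left part of the block was also somewhat higher in GEM8 and the stretch before it in GEM8 and GEM9. The median over the members from Fuca2 to Tbpl1 was 0.62 in GEM8, with 25 of 29 genes above 0, and -0.33 in GEM7, which grew on the same mouse. GEM8 was the second highest GEM-BCC tumor for 15 of these 29 genes and for none of the other 11 members, where its median over Slc18b1 to Akap7 was -0.50. Its highest window of all chromosomes, Tab2 to Hivep2 with 0.90, overlapped the left end of the block. In GEM9 the genes before Fuca2 had a median of 0.57 and the members from Fuca2 to Tbpl1 of -0.08. The Tp-BCC tumors, set against the mean of the 8 GEM-BCC tumors without GEM4, had block medians of -0.15 in TP1, -0.39 in TP2, -0.24 in TP3 and -1.18 in TP4. TP1 and TP3 were higher than the mean of these GEM-BCC tumors before Fuca2, with medians of 0.73 and 0.80, and the median of every Tp-BCC tumor lay below that of GEM4 in the left and in the right stretch of the block.

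**Figure D2:**
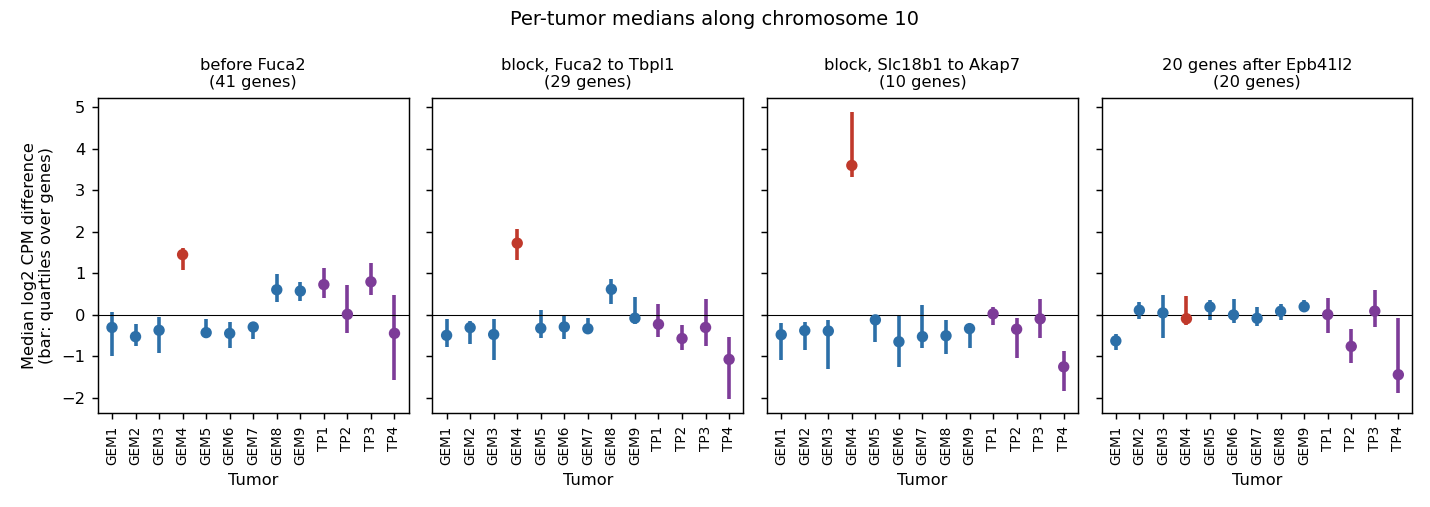
Median log2 CPM difference of each tumor (points, bars for the quartiles over genes) in 4 stretches of chromosome 10, relative to the other GEM-BCC tumors for GEM-BCC and to the 8 GEM-BCC tumors without GEM4 for Tp-BCC. GEM4 (red) stands at 1.45, 1.73 and 3.60 in the first 3 stretches and at -0.09 in the last, and GEM8 stands at 0.62 from Fuca2 to Tbpl1.

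The 3 genes with the largest differences, Enpp1, Moxd1 and Med23, lie close to each other on the right of the block, with Ccn2 (2.75) and Enpp3 (0.85) between them. Promoter sequences are shown for Enpp1 and Moxd1, which had the largest differences, for Enpp3, the neighbour of Enpp1 with a small difference, and for Epb41l2, the first gene past the drop. Each runs from 250 bases before to 50 after the annotated start, read 5' to 3' in the direction of the gene, from RefSeq on GRCm38.p6. The Enpp1 promoter is at chr10:24712110-24712409, minus strand, that of Moxd1 at chr10:24223267-24223566, plus strand, that of Enpp3 at chr10:24836146-24836445, minus strand and that of Epb41l2 at chr10:25408118-25408417, plus strand. Capitals mark matches on either strand to the GC box (letters GGGCGG), the CCAAT box, the TATA box (letters TATAAA) and the AP-1 site (letters TGANTCA), and no marked match overlaps another in these 4 promoters.
Enpp1: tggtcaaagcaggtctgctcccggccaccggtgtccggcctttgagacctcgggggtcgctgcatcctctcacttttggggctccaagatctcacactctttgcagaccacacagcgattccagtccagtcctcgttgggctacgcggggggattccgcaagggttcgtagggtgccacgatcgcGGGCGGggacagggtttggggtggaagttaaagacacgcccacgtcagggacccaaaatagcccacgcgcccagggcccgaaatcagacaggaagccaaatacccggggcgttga
Moxd1: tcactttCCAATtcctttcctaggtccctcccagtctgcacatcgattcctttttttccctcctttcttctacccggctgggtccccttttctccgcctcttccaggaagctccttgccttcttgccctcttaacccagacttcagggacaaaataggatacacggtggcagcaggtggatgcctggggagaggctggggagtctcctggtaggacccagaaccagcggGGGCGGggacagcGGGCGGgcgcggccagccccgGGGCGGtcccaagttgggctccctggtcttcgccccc
Enpp3: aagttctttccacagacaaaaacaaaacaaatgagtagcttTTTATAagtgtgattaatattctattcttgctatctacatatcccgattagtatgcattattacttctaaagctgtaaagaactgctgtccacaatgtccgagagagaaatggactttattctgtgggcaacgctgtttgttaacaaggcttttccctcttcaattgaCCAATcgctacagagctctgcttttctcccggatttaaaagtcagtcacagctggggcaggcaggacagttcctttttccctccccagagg
Epb41l2: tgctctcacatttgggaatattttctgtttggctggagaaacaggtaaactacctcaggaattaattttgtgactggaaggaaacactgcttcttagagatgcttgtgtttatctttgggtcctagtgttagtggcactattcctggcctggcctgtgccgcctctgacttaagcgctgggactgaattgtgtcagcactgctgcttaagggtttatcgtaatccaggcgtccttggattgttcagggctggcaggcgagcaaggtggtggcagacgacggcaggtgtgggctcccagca
Moxd1 held 3 GC boxes and 1 CCAAT match, Enpp1 held 1 GC box, and Enpp3 held 1 TATA box and 1 CCAAT match. Epb41l2 held none of the 4 motifs in this window. The CG dinucleotide occurred 22 times in Enpp1, 13 in Moxd1, 5 in Enpp3 and 7 in Epb41l2. Promoters were listed for 39 of the 47 members, and 26 of them (66.7%) held a GC box, against 35.9% of the 27025 promoters of all genes. CCAAT was found in 25.6% of the members and 37.9% of all promoters, the TATA box in 7.69% and 14.2%, and the AP-1 site in 5.13% and 7.93%. The 27025 promoters include those of genes not tested here, and the median number of CG dinucleotides was 18 in the members and 7 in all promoters. The motif shares were not set against tested genes alone or promoters of like CG content. A match describes the letters and says nothing of binding.

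Enpp1 encodes the ectoenzyme that makes pyrophosphate from extracellular ATP. It had 10200 CPM in GEM4 and 45.5 to 394.3 CPM in the other GEM-BCC tumors, with a median of 140.4. Its 309381 counts were 1.04% of the GEM4 library, more than any other gene there. Per kilobase of transcript it ranked 15 of 14095 genes in GEM4, at 2150 CPM per kilobase against a median of 29.6 in the other GEM-BCC tumors. GEM4 thus lay far above all others, and GEM7 (394.3) was the next. Moxd1, a copper monooxygenase related to dopamine beta-hydroxylase, had 3910 CPM in GEM4 and 26.1 to 187.5 in the other GEM-BCC tumors (median 124.8). Med23, a subunit of the Mediator complex that links transcription factors to RNA polymerase II, had 1484 CPM in GEM4 and 28.6 to 52.3 in the others (median 42.2).

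The neighbours of these genes were less extreme. Stx7, a syntaxin of late endosomes, had 457.4 CPM in GEM4 and 25.5 to 40 in the other GEM-BCC tumors. Slc18b1, a vesicular polyamine transporter, had 157.6 CPM against 13.8 to 18.2, and Akap7, which anchors protein kinase A, had 27.9 against 1.49 to 4.67. None of these 3 genes overlapped between GEM4 and the rest. Vnn1, a pantetheinase, had 131 counts in GEM4 and at most 24 elsewhere. Ccn2 was higher by 2.75 in GEM4, at 101.4 CPM, but GEM3 had 52.5 while the other 7 GEM-BCC tumors had at most 27.8. Enpp3, a relative of Enpp1 that marks basophils and mast cells, had 11.8 CPM in GEM4 and 4.63 to 12 in the others, inside their range. Epb41l2, a protein of the membrane skeleton, had 96.4 CPM in GEM4 and 55.1 to 102.8 in the others.

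Slc35d3, an orphan sugar transporter, had 116 counts in GEM4, 41 in GEM9, 19 in GEM8 and 10 or fewer in the other 6. These counts are low in every tumor, and GEM4 was the highest.

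**Figure D3:**
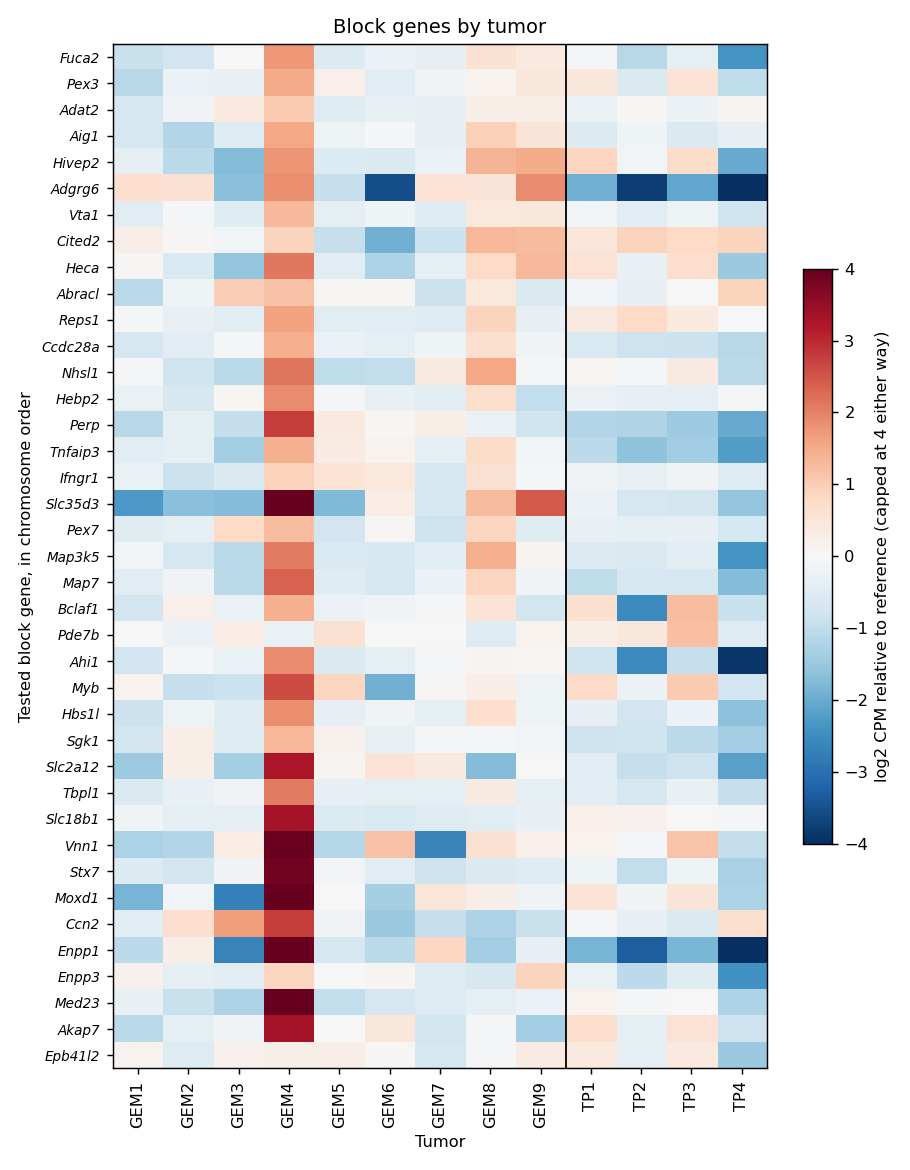
Log2 CPM of 39 of the 40 tested block genes (rows, in chromosome order) in the 13 tumors (columns), relative to the mean of the other GEM-BCC tumors or, for Tp-BCC, of the 8 GEM-BCC tumors without GEM4, with colours capped at 4. The GEM4 column is red for 38 genes, GEM8 is mostly red above Slc2a12, and TP4 is blue for most genes.

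On the left of the block, the 5 tested adhesion, cytoskeleton and cilium genes differed by 1.18 (Abracl) to 2.77 (Perp) in GEM4. Perp had 2541 CPM in GEM4 and 234.8 to 592.2 in the other GEM-BCC tumors (median 379.5), and per kilobase it was the 47th of 14095 genes in GEM4. Map7, which binds microtubules and recruits kinesin, had 214.3 CPM against 25.5 to 83.9. Ahi1, a protein of the ciliary base, had 67.6 CPM against 13 to 22.5. All 3 genes lay above the whole range of the other GEM-BCC tumors.

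Cytokine receptor and inflammatory signalling genes differed by 0.91 to 2.08 in GEM4. Tnfaip3 had 47.6 CPM against 8.51 to 31.2 in the other GEM-BCC tumors. Ifngr1 had 44.8 CPM against 15 to 37.3, so GEM4 was highest by a small margin over GEM8. Map3k5, the stress kinase Ask1, had 127.1 CPM against 18 to 85.9, with GEM8 next again. The adhesion receptor Adgrg6, placed in this group though not a cytokine receptor, had 64.3 CPM in GEM4 and 65.9 in GEM9, and 2.21 to 30.9 in the other 7 tumors. Il20ra, a receptor chain for interleukins 20 and 24, had at most 6 counts in any GEM-BCC tumor and at most 9 in any Tp-BCC tumor, and the decoy receptor gene Il22ra2 had 1 count in GEM4 and 0 in the other GEM-BCC tumors, so neither could be compared.

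Other genes of the left side encode kinases, transcription factors and peroxisome proteins. Sgk1, a kinase induced by glucocorticoids, had 233.3 CPM in GEM4 and 65.6 to 120.7 in the other GEM-BCC tumors. Myb, a factor of cycling progenitor cells, had 5.11 CPM against 0.239 to 1.69. Both lay above the range of the others. Cited2, a co-regulator that limits hypoxia signalling, had 40.4 CPM, below GEM8 (52.4) and GEM9 (50.4). Pex3, which brings membrane proteins to peroxisomes, had 46.8 CPM against 9.34 to 24.7. Pex7, the import receptor for a small class of peroxisomal enzymes, had 37.2 CPM against 10.4 to 29.7, and GEM8 and GEM3 came close to GEM4. Pde7b, a cAMP phosphodiesterase, was the 1 tested member lower in GEM4, by -0.26, with 24 counts against 21 to 49.

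The other 15 tested members from Fuca2 to Tbpl1 all differed by over 1 in GEM4, from 1.04 for Adat2, part of the enzyme that edits tRNA anticodons, to 3.27 for Slc2a12. Slc2a12, a glucose transporter, had 86.4 CPM in GEM4 and 3.93 to 16 in the other GEM-BCC tumors, with GEM8 the lowest of them. Hbs1l, which frees stalled ribosomes, had 182 CPM against 34.1 to 87.2, and Tbpl1, a relative of the TATA-binding protein, had 96.7 against 18.7 to 33.4. GEM4 was clear of the others in all 3 genes. Hivep2, a zinc finger factor, had 95.7 CPM in GEM4, 80.5 in GEM9 and 74 in GEM8, and 11 to 27.4 in the other 6 tumors, so 3 tumors shared its high level. Nhsl1, a protein of cell edges, had 289.8 CPM in GEM4 and 201.3 in GEM8, and the other 7 had 39.8 to 95.9. The remaining genes lay between these, with 1.73 for Fuca2, a fucosidase, 1.53 for Aig1, a lipid hydrolase, 1.28 for Vta1 and 1.61 for Reps1, both of endosomal traffic, and 2.12 for Heca. Abracl had 1.18, Ccdc28a 1.44, Hebp2, a heme-binding protein, 1.89 and Bclaf1, a nuclear RNA-processing factor, 1.44.

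By role, the tested enzymes and transporters had the highest median differences in GEM4, and the 7 enzymes ranged from 0.85 (Enpp3) to 6.10 (Enpp1). Of these enzymes, Vnn1, Moxd1, Enpp1 and Enpp3 lie in the right stretch of the block, whose median was 3.60, so role and position were not separated. The 3 transporters (Slc18b1, Slc2a12 and Slc35d3) had a median of 3.33 and the 4 kinase and Yap-linked genes of 2.04. The 6 adhesion, cytoskeleton and cilium genes had 2.02, the 6 transcription and chromatin genes 1.92 and the 5 genes of translation and other roles 1.87. The 4 genes of the inflammatory signalling group, with Adgrg6 included, had 1.64, the 3 vesicle traffic genes 1.61 and the 2 peroxisome genes 1.36. Among the 7 untested members the highest count in any tumor was 43, for Tcf21 in GEM3, and GEM4 had 1 to 10 counts of them.

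**Figure D4:**
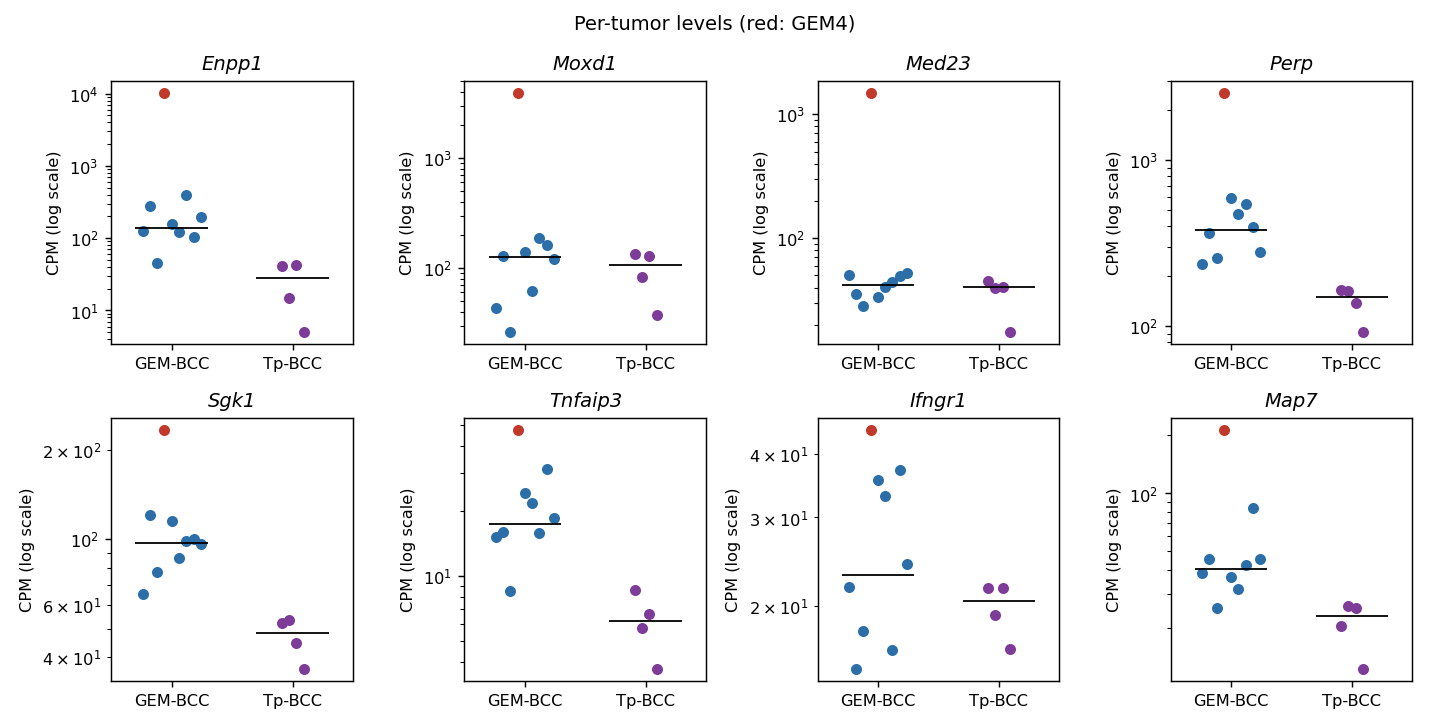
CPM of 8 block genes in GEM-BCC and Tp-BCC tumors (points, log axes), with GEM4 in red and lines at the median of the 8 other GEM-BCC and of the 4 Tp-BCC tumors. GEM4 is the highest point for all 8 genes, far apart for Enpp1 (10200 CPM), Moxd1 (3910) and Med23 (1484), and the Tp-BCC points of Enpp1, Perp and Sgk1 lie below all GEM-BCC points.

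The study set Tp-BCC against GEM-BCC to ask how far transplanted tumors keep the expression of induced ones. With all 13 tumors, 8 of the 40 members passed an adjusted p of 0.05 in edgeR, all of them lower in Tp-BCC, against 19.4% of all tested genes in either direction, 8.35% lower and 11.1% higher. Because GEM4 lies in the GEM-BCC group and chose the members, the comparison was also fitted with 8 GEM-BCC tumors. Without GEM4, 7 of 40 (17.5%) passed, all lower, against 16.1% of all genes in either direction, 6.87% lower and 9.27% higher. The 7 were among the 8 of the former fit. The 8th, Ccdc28a, had an adjusted p of 0.0431 with GEM4 and 0.0551 without it. An unadjusted p under 0.05 was found for 16 members in each fit, against 34.5% of all genes with GEM4 and 32% without it. With the filter applied to the 12 tumors other than GEM4, 38 members were tested, 7 of them passed (16.3% of all genes) and 15 had an unadjusted p under 0.05 (32.1%). With a log2 fold change over 2 as well, 3 members passed with GEM4 (5.57% of all genes) and 2 without it (5.41%). The median log2 fold change over the members was -0.97 with GEM4 and -0.37 without it, beside -0.03 over all genes in both fits. Of the members, 6 had every Tp-BCC tumor below every one of these 8 GEM-BCC tumors, against 4.74% of all genes, and 0 had every one above.

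TP2 and TP4 bore on these counts. Log2 CPM of each gene, less its mean over the 13 tumors, was set against the GC content of its transcripts. The Spearman rho across genes was 0.594 in TP2 and 0.591 in TP4 but -0.389 in TP1 and -0.473 in TP3. These values are relative to the other tumors, so positive trends in some tumors lower the rho of the rest. In GEM-BCC, rho was 0.365 in GEM1 and -0.312 to -0.15 in the other tumors. TP4 was the lowest of the 13 tumors for 24 members. The members' median GC content was 48%, beside 51.3% over all genes. Without TP2 and TP4, 2 members passed in the fit without GEM4 (9.59% of all genes) and 0 in the fit with it (10.9% of all genes). In the latter, 5 members had an unadjusted p under 0.05 in edgeR (27.5% of all genes). Its log2 fold changes were -2.08 for Perp, -1.20 for Sgk1, -1.54 for Tnfaip3 and -4.99 for Enpp1. They were -2.78 for Adgrg6, -1.45 for Map7 and -1.29 for Ahi1. With all 13 tumors these 7 values were -2.18, -1.24, -1.84, -5.65, -3.46, -1.57 and -1.99. With the GC trend removed from every tumor, 8 members passed in each fit (25.7% and 28.6% of all genes), and the block median of TP4 was -0.32 in place of -1.18. The medians of TP1 to TP4 before Fuca2, set against the 8 GEM-BCC tumors, were then 0.71, 0.53, 0.70 and 0.37. In the fit with GEM4, 3 members passed without TP2 (11.2% of all genes), 3 without TP4 (13.2%), 5 without TP1 (17%) and 5 without TP3 (20.7%).

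**Figure D5:**
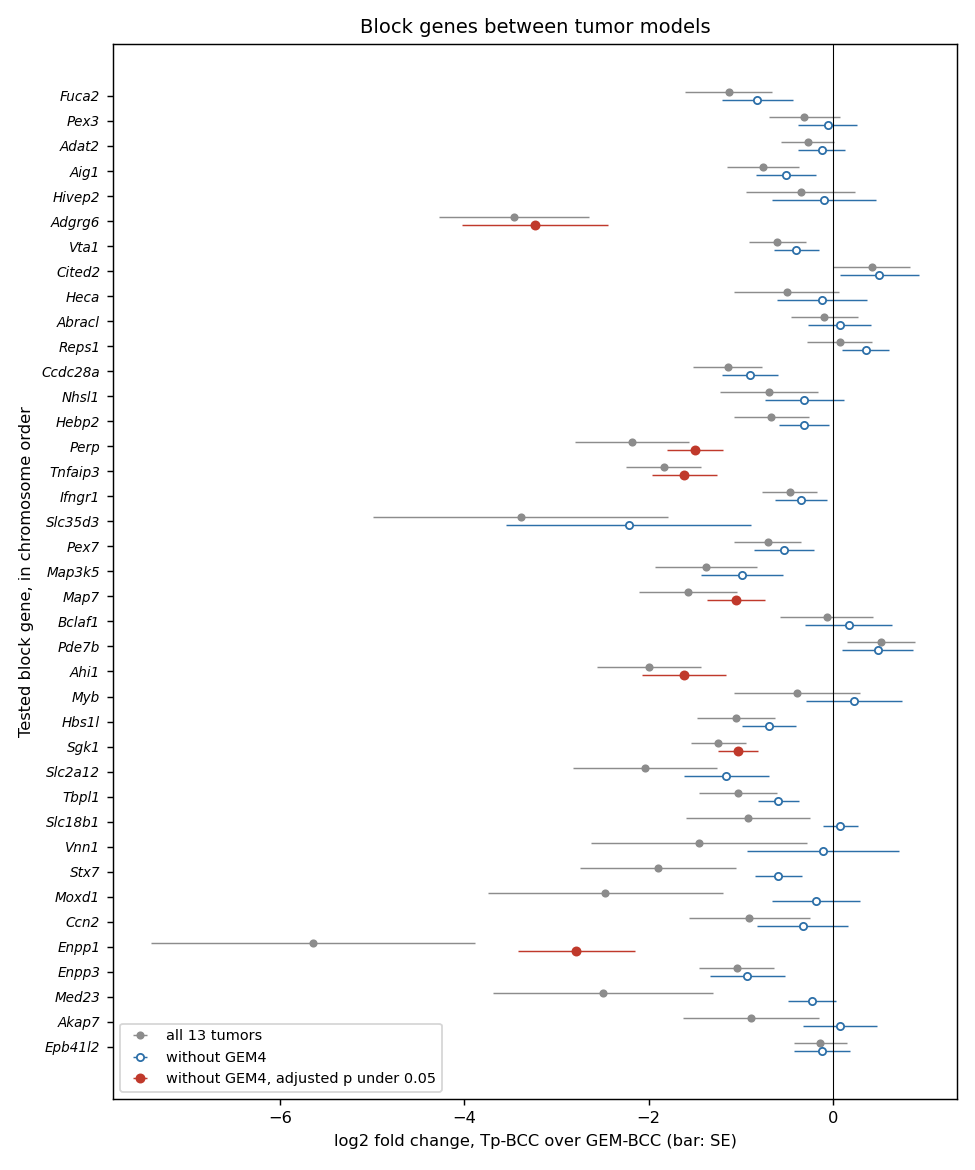
Log2 fold change of Tp-BCC over GEM-BCC (points, bars for the SE) of 39 of the 40 tested block genes in chromosome order, with all 13 tumors (grey) and without GEM4 (blue open, red where the adjusted p is under 0.05). The 7 red points all lie left of 0, and the grey points of some genes, Enpp1, Moxd1, Med23 and Stx7 among them, lie more than 1 to the left of the point without GEM4.

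Of the 7, Perp, Map7 and Ahi1 belong to the adhesion, cytoskeleton and cilium genes. Perp had 165.5, 163, 137.1 and 91.6 CPM in TP1 to TP4, all below the lowest of the 8 GEM-BCC tumors (234.8), and 139.3 ± 34.3 (SD, n = 4) against 393 ± 134.4 (n = 8). It fell by 1.50 ± 0.30 (log2, SE, edgeR adjusted p = 0.00457) without GEM4 and by 2.18 ± 0.62 (adjusted p = 0.0233) with it. In the fit with GEM4, the log2 fold change of Perp was -2.30 (edgeR adjusted p = 0.0576) without TP2 and -2.08 (0.0716) without TP4. Map7 had 20.6, 26, 25.6 and 12.3 CPM in TP1 to TP4 and 43.8 ± 17.6 in the 8 GEM-BCC tumors, where GEM3 (25.5) overlapped with Tp-BCC. It fell by 1.05 ± 0.32 (edgeR adjusted p = 0.0343), a call lost when any of GEM2, GEM7, GEM9, TP1, TP2 or TP4 was left out, with adjusted p-values of up to 0.0742 and log2 fold changes of -1.17 to -0.89. Ahi1 had 10.2, 3.02, 9.4 and 1.14 CPM in TP1 to TP4, all below the lowest GEM-BCC tumor (13), and TP2 and TP4 had less than TP1 and TP3. It fell by 1.62 ± 0.46 (edgeR adjusted p = 0.027), or by 1.40 (adjusted p = 0.0871) without TP2, and by 1.55 (adjusted p = 0.0563) with counts summed per mouse.

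Another 3 of the 7, Sgk1, Tnfaip3 and Adgrg6, are signalling genes. Sgk1 had 52, 53.2, 44.5 and 36.6 CPM in TP1 to TP4 and 95 ± 18.4 in the 8 GEM-BCC tumors, whose lowest was 65.6. The groups did not overlap, and Sgk1 fell by 1.03 ± 0.21 (edgeR adjusted p = 0.00547). Tnfaip3 had 8.6, 5.72, 6.7 and 3.71 CPM in TP1 to TP4 and 18.9 ± 6.85 in GEM-BCC, where GEM3 (8.51) lay just below TP1. It fell by 1.61 ± 0.35 (edgeR adjusted p = 0.0069). Adgrg6 had 4.59, 1.22, 4.07 and 0.857 CPM in TP1 to TP4 and 25.5 ± 19.9 in GEM-BCC, with GEM6 (2.21) inside the Tp-BCC range. It fell by 3.24 ± 0.79 (edgeR adjusted p = 0.0139).

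Enpp1 was low in Tp-BCC and varied among its tumors, with 41, 14.9, 42.1 and 5 CPM in TP1 to TP4. All 4 lay below the lowest GEM-BCC tumor (GEM3, 45.5), by little in TP1 and TP3. The 8 GEM-BCC tumors had 177.5 ± 111.4 CPM. Enpp1 fell by 2.78 ± 0.63 (edgeR adjusted p = 0.00907) without GEM4 and by 5.65 ± 1.76 (adjusted p = 0.0351) with it, so GEM4 alone moved the fold by 2.86. DESeq2, which by default replaced the GEM4 count of Enpp1 as an outlier, gave -2.74 with GEM4, and -5.67 with no counts replaced. The call with GEM4 was lost when any of the 4 Tp-BCC tumors was left out, with adjusted p-values of 0.055 to 0.0991 and log2 fold changes of -5.99 to -5.35. With TP2 and TP4 both left out and GEM4 left out too, the adjusted p was 0.0681 for Enpp1, 0.067 for Tnfaip3, 0.122 for Adgrg6, 0.129 for Map7 and 0.0513 for Ahi1, so that Perp and Sgk1 were the 2 members still passing. The log2 fold changes were then -2.10 for Enpp1, -1.30 for Tnfaip3, -2.55 for Adgrg6, -0.92 for Map7 and -0.90 for Ahi1, with 2 Tp-BCC tumors in the fit.

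For several other members the apparent difference between the models was that of GEM4. Moxd1 had a log2 fold change of -2.47 ± 1.27 with GEM4 and of -0.18 ± 0.47 without it (edgeR adjusted p = 0.182 and 0.819), and Tp-BCC tumors had 133.5, 82.6, 129.3 and 37.6 CPM, inside the range of the 8 GEM-BCC tumors. Med23 had -2.50 ± 1.20 and -0.22 ± 0.26 (adjusted p = 0.151 and 0.584), with 45, 40, 40.5 and 17.4 CPM in TP1 to TP4. TP4 alone lay below the GEM-BCC range of Med23. Slc18b1 had -0.92 and 0.08, and Akap7 had -0.89 and 0.08. Neither gene passed in either fit. Bclaf1 had 77, 8.23, 116.5 and 26.4 CPM in TP1 to TP4, a spread wider than the 34.1 to 77.3 CPM of the 8 GEM-BCC tumors, with TP2 and TP4 on the low side, and its log2 fold change was 0.17 ± 0.47 (edgeR adjusted p = 0.826).

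The remaining genes of known role did not pass without GEM4. Ifngr1 had a log2 fold change of -0.35 ± 0.28 (edgeR adjusted p = 0.421), Map3k5 of -0.99 ± 0.45 (0.143), Myb of 0.23 ± 0.52 (0.787) and Cited2 of 0.51 ± 0.43 (0.437). Tbpl1 and Ccdc28a had every Tp-BCC tumor below the 8 GEM-BCC tumors but did not pass in the fit without GEM4, at -0.59 ± 0.22 (edgeR adjusted p = 0.0806) and -0.90 ± 0.30 (0.0551). Pex3 had -0.06 ± 0.32 (0.924), Pex7 had -0.53 ± 0.33 (0.284) and Ccn2 had -0.33 ± 0.49 (0.68). These tests could miss changes of this size. On simulated counts, 47% of genes with a log2 fold of 1 were found in the fit without GEM4, and 100% of those with 2. The simulation gave every gene the same spread between tumors. Members with a wider spread, such as Vnn1 (SE 0.82), can thus be missed at larger folds too. Slc35d3 had 0 to 2 counts in Tp-BCC tumors and 0 or 1 in 4 of the 8 GEM-BCC tumors, so no fold is given.

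Partners of the block genes elsewhere in the genome were read from lists, in the fit without GEM4, in which 6.87% of all tested genes were lower and 9.27% higher. Of 14 desmosome genes, which build the junctions that Perp belongs to, 9 were lower in Tp-BCC and 0 higher, with a median of -1.90, Pkp2 (-1.85, adjusted p = 0.0045), Dsg1a (-2.55, 0.00628) and Dsc2 (-2.92, 0.00628) among them. Of 15 p53 targets, 4 were lower and 0 higher, the 3 with the smallest adjusted p being Eda2r (-1.80, 0.0131), Cdkn1a (-1.49, 0.017) and Trp53inp1 (-2.69, 0.0183). Of 27 interferon gamma response genes, 0 passed in edgeR in either direction (median -0.26), 4 had an unadjusted p under 0.05 (32% of all genes) and 2 passed in DESeq2 (23.2% of all genes). Of 14 NF-kappaB feedback and target genes only Traf1 passed (-2.21, 0.0118). Of 11 Yap targets and partners Tead2 (1.66, 0.000772), Tead4 and Tead3 were higher. Of 7 Myb family and MuvB genes Mybl2 (1.90, 0.00102) and Foxm1 (1.61, 0.00547) were higher. Of 15 peroxisome genes, Pex19 (0.73) was higher and Pex2 (-0.80) lower, of 16 stress kinase genes Txn1 (0.71, 0.047) was higher, and of 4 genes of the Il20 and Il22 receptor family Il20rb (1.05, 0.0231) was higher. In DESeq2, more genes passed in 4 of these lists: 6 p53 targets, 4 peroxisome genes, 3 stress kinase genes and 2 of the receptor family. The desmosome, NF-kappaB, Yap and Myb lists had 9, 1, 3 and 2 passing genes in DESeq2, as in edgeR.

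In GEM4 the median differences of these lists from the other GEM-BCC tumors lay between -0.20, for the interferon gamma response genes, and 0.63, for the desmosome genes, of which Dsg3, named after its value was seen, differed by 3.26. The summed CPM in GEM4 was above all other GEM-BCC tumors for the desmosome genes (2590 against 897 to 2202), the p53 targets (676.1 against 533.7 to 659) and the stress kinase genes (924 against 727.1 to 875.4). It was also above them for the interferon gamma response genes (1325 against 416.8 to 1267), whose median was below 0, as was that of the p53 targets (-0.03). Markers of other cells moved with GEM4. The 7 tested differentiated epidermis markers summed to 298.2 CPM in GEM4, 27.4 to 251.5 in the other induced tumors and between 42.2 and 54.1 in the transplanted ones. Between the models without GEM4, their median log2 fold change was -2.38, and Krt10 and Krt77 passed as lower in Tp-BCC (edgeR adjusted p = 0.0103 and 0.0187). Fibroblast markers summed to 13200 CPM against 20660 to 50440, with Col1a1, Col1a2 and Col3a1 the 3 of 11 below -1 and a median of -0.39 over the list. Neutrophil markers summed to 2.08 CPM against 3.78 to 21.4 and T cell markers to 6.4 against 6.67 to 18.4. Macrophage markers (19 genes) summed to 272.4 CPM against 328.1 to 653.8. Endothelial markers summed to 227.1 CPM, inside the range of 178.6 to 411.7. In Tp-BCC, endothelial markers summed to between 586.6 and 924.5 CPM and adipocyte markers to between 15.2 and 217.1. The latter lay above the 1.49 to 5.23 of adipocyte markers in the 8 GEM-BCC tumors, and neither list overlapped between the models. Macrophage markers summed to between 624.2 and 855 CPM in Tp-BCC, overlapping with GEM-BCC. Skeletal muscle markers summed to between 2.36 and 163.7, against 4.69 to 10.1 in the 8 GEM-BCC tumors. In the fit without GEM4, 4 of 11 fibroblast markers passed as higher in Tp-BCC and 2 as lower. Of the tested markers, 2 of 18 for macrophages and 1 of 6 for skeletal muscle passed as higher. Lower were 2 of 6 for neutrophils and 1 of 4 for T cells. The part of these cells and of the epidermis markers in the lower levels of block genes in Tp-BCC was not tested. The part of cell content in the levels of the block in GEM4 was not tested.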

How the data were processed

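Poly(A) RNA of 13 tumors was measured (9 GEM-BCC, 4 Tp-BCC, 1 library each). The authors aligned reads with Bowtie2 2.3.4.3 to GRCm39 and quantified them with RSEM 1.3.1, and the deposited values are expected counts, neither rounded nor normalized. Members and lists were chosen with earlier results of these data known, and the named members are those that passed without GEM4, the 5 highest and 5 lowest in GEM4 and 12 of known role.

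Of the tested members, 1 is not reported here by name. Counts were rounded. The 14390 genes tested had values in all tumors (16687 did) and 10 or more counts in 4 or more tumors. Tests were run in R 4.3.3 with edgeR 4.0.16 (TMM, quasi-likelihood F test, robust, 2-sided), with Benjamini-Hochberg adjustment over all tested genes. A gene passed at an adjusted p under 0.05. The SE of a log2 fold change was its size over the root of F, and a prior count of 2 went into log2 CPM. The GC trend of each tumor (lowess, span 0.3, on log2 CPM less the gene's mean over the tumors) used GENCODE vM21 transcripts, present for 14095 genes. Kilobases came from these transcripts. The tests were checked on simulated counts with the same spread for every gene. Tumors that share a mouse were treated as separate, and p-values measure spread between tumors. Alternatives were other size factors, DESeq2 1.42.0, other filters, other dispersions, counts summed per mouse, GC correction, the fold threshold and each tumor left out, and, added after the data were seen, TP2 and TP4 left out, DESeq2 with no counts replaced and the filter over 12 tumors.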

Additional observations from a re-analysis of the deposited data

Results flagged for a closer look

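In groups of 4 to 10 tumors, a tumor was singled out when its gap to the nearest other tumor was a large share of the group's whole range. In GEM-BCC the single high tumor was GEM4 in each of 7 cases, which is the value that chose the members, so these shares are a description and no test. The share was 0.623 for the block median, 0.612 for Perp, 0.519 for Sgk1, 0.601 for Enpp1, 0.666 for Ahi1, 0.606 for Moxd1 and 0.847 for Med23. In Tp-BCC the single low tumor was TP4 in each of 3 cases among 23 series, with shares of 0.875 for Med23, 0.944 for Map3k5 and 0.833 for Pex7. All these series come from the same 4 tumors, and TP4 was the lowest of the 13 tumors for 24 members. The 3 cases are thus not independent and are a description too. Tcf21, a factor of mesenchymal cells that lacks a value in Tp-BCC and was therefore not compared, had 43 counts in GEM3, 3 in GEM4, 2 in GEM9 and 0 in the other GEM-BCC tumors.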

How the results depend on the processing

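The block median of GEM4, 1.88, was 1.73 to 1.91 under the other scalings, prior count, reference, gene set and GC correction and 1.86 to 1.97 with each other GEM-BCC tumor left out. Of the members, 8 passed between models with all tumors, 3 with the fold threshold of 2 on the log2 scale, 15 in DESeq2 with or without replaced counts, 0 without TP2 and TP4, and 3 to 8 with 1 tumor left out, where 11.2% to 21% of all genes passed. Without GEM4, 7 passed, 2 with the fold threshold, 11 in DESeq2 either way, 2 without TP2 and TP4, and 5 to 8 with 1 further tumor left out, where 8.84% to 17.4% of all genes passed. DESeq2 called 26% and 23.2% of all genes in the respective fits, and the fold threshold left 5.57% and 5.41%. With counts summed per mouse, 6 members passed with GEM4 (18.1% of all genes) and 6 without it (14.9%). Map7 did not pass in the per-mouse fit with GEM4, at a log2 fold change of -1.65 (edgeR adjusted p = 0.0524). With GEM4, DESeq2 by default replaced the GEM4 count of 8 members, which gave log2 fold changes of -2.74 for Enpp1, -0.20 for Moxd1 and -0.24 for Med23, and -5.67, -2.50 and -2.53 with no counts replaced. All passing members were lower in Tp-BCC under these settings. The cause was not tested. No named member that passed changed direction. Counts of 3 or fewer per library give no fold, which limits Slc35d3. The 7 untested members have no fold because they missed the count filter or lack a value in Tp-BCC. No paired analysis was possible because the tumors of the 2 models come from different mice, the numbers only name tumors, and GEM5 to GEM9 have no partner.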

Other observations

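Apart from GEM4 and GEM8, the highest windows of 21 neighbouring genes in the GEM-BCC tumors lay outside chromosome 10. The mean they were set against includes GEM4, which lowers their values on the left of chromosome 10. In GEM9 the highest window ran from Map3k1 to Emb on chromosome 13, with a median of 1.16 against the other GEM-BCC tumors, and 6 of its windows were above 1, all outside chromosome 10. GEM1, GEM2, GEM3, GEM5, GEM6, GEM7 and GEM8 had no window above 1, and their highest medians were 0.75 to 0.97. These values describe single tumors and carry no test.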
